A study of Mus musculus with 34 samples.

Results

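The mitochondrial ribosomal protein genes were followed through the hearts of mice given carbon black nanoparticles. They were taken by name: every gene whose symbol, reached through the RefSeq accession of its array probe, starts with Mrpl (large subunit) or Mrps (small subunit). The arrays measured 76 such genes, 47 named Mrpl and 29 named Mrps, of 19798 genes tested. Subunits below are read from the prefix, which does not hold for every member, such as Mrps18a and Mrps36. RefSeq lists 78 protein-coding genes with these prefixes, and Mrpl44 and Mrpl48 were not analysed here. The 76 members had 107 probes that passed the filter on dim spots. Of the members, 74 were well above background on all 34 arrays, no member value was missing and none was saturated.

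All animals were female C57BL/6 mice, bought at 5 to 6 weeks of age and fed freely. A single instillation into the trachea gave the exposed animals 162 µg of Printex 90, which is carbon black in nanoparticle form. The powder had been sonicated in water with 0.9% NaCl and 10% (by volume) cell-free lung lavage fluid from mice of the same strain, and 40 µl of it were followed by 150 µl of air. Control mice received the vehicle, with 0 µg of particles. Hearts were taken on day 1, 3 or 28 as a random section through both ventricles. There were 6 control arrays at each day, 6 carbon black arrays at day 1, and 5 each at day 3 and day 28, with 1 mouse per array. Heart RNA carried Cy5, and a Universal Mouse Reference RNA, the same on all arrays, carried Cy3. Each value below is a log2 ratio of heart over reference, so it states the level of one gene against its own level in the reference and cannot be compared between genes as an amount.

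Between 42.8% and 66.6% of the spots of an array were well above background. All 8 ventricular cardiomyocyte markers (such as Myh6 and Tnni3) were well above background on all 34 arrays, with log2 ratios from 1.68 to 5.86 in control hearts. Of 6 atrial markers, Bmp10 was well above background on 29 arrays. On 5 arrays the mean of the atrial markers, relative to the median array, was from -4.28 to -2.22 on the log2 scale, while the other 29 arrays ran from -0.66 to 0.66. They are 3 controls (replicate 2 of day 1, replicate 4 of day 3 and replicate 2 of day 28) and 2 exposed hearts (replicate 6 of day 1 and replicate 2 of day 3). White adipocyte markers ran from -4.72 to -1.85 on them and from -4.52 to 1.68 on the others. In a tissue section, fewer cells of a type and less RNA per cell cannot be told apart. Results that rest on these 5 arrays are given with and without them.

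Mitochondria keep a ribosome of their own, which translates the few proteins still encoded in mitochondrial DNA, all of them subunits of the respiratory chain and of ATP synthase. Its RNAs come from mitochondrial DNA, whereas every one of its proteins is encoded in the nucleus, made in the cytosol and imported. The heart depends on this supply, and inherited defects of several members, among them Mrpl3, Mrpl44 and Mrps22, cause cardiomyopathy. Nuclear respiratory factor 1 (NRF1), ETS factors such as GABP, and YY1 are known to act on many nuclear genes of mitochondrial proteins.

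Promoter sequences are shown for 5 members because the results below turn on them: Mrpl55 was the member called, Mrps12 and Mrps21 varied with it across arrays, Mrpl51 followed the bulk of the family most closely, and Mrps6 ran against it. Each is the 250 bases before the RefSeq start in GRCm38.p6, 5′ to 3′ on the gene's strand, with NRF1, ETS and YY1 matches in capitals. They lie at chr11:59202236-59202485 (+ strand, Mrpl55), chr7:28741822-28742071 (- strand, Mrps12), chr3:95871515-95871764 (- strand, Mrps21), chr6:125191950-125192199 (+ strand, Mrpl51) and chr16:92058086-92058335 (+ strand, Mrps6).
Mrpl55: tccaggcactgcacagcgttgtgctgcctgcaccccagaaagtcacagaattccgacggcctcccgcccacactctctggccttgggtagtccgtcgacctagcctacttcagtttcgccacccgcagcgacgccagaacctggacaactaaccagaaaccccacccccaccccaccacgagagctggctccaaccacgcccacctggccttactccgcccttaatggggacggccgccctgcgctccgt
Mrps12: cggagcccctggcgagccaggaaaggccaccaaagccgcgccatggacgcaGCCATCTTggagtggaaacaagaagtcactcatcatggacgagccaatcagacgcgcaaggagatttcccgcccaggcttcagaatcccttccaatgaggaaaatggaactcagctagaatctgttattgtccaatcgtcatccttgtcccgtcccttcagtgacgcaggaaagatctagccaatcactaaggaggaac
Mrps21: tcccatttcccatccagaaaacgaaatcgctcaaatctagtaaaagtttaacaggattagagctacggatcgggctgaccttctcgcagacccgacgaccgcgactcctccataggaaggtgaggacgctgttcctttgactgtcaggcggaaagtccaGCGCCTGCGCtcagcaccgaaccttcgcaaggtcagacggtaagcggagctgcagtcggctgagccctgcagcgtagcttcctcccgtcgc
Mrpl51: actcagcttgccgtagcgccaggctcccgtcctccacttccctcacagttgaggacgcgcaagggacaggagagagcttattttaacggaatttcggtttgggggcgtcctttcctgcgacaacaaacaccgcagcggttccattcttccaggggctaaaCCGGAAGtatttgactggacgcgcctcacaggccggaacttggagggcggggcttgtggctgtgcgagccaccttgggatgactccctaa
Mrps6: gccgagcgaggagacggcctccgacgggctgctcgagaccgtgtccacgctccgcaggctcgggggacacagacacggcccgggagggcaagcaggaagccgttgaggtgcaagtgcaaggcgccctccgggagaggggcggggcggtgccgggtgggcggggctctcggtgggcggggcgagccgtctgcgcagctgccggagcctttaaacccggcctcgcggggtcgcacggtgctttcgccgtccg
The capitals mark a YY1 match in Mrps12 (first base at -199 from the start), an NRF1 match in Mrps21 (-91) and an ETS match in Mrpl51 (-90). Mrps12 and Mrps21 also had an ETS match just after the start, at 1 and 18, outside the bases shown. Mrpl55 and Mrps6 held none of these letters. The CCAAT box, which is left in lower case, occurs 4 times in the Mrps12 bases and 0 times in the others.

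Each motif was searched on its own and on both strands, so matches of different motifs could overlap. The letters were the NRF1 motif, CCGGAAG for ETS, AAGATGGC for YY1 and CCAAT for the CCAAT box. The windows held 300 bases (250 before and 50 after the start). A promoter was found for 67 members. The ETS letters stood in 37.3% of them against 9.93% of all 27025 promoters. YY1 letters stood in 17.9% against 3.19%, and NRF1 letters in 17.9% against 5.19%. At least 1 of these 3 was present in 61.2% of members and 16.4% of all promoters, while CCAAT was found in 40.3% and 41.1%. A match is a description of the letters and not a site. In 26 of the 67, another gene starts within 1000 bases in the opposite direction. Mrps12 and Sars2, the mitochondrial seryl-tRNA synthetase, start 147 bases apart, and the pair Mrps11 and Mrpl46 start 42 bases apart.

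In control hearts the family sat slightly above the reference. Over the 18 control arrays the median log2 ratio of the 76 members was 0.35, against 0.06 for all genes tested, with 54 members above 0. That direction depends on the scaling, since centring each array on its median in place of loess gave -0.61 for the members and -0.36 for all genes, and the values deposited by the authors gave 0.16 and -0.03. Both subunits had about the same median, 0.36 for the large and 0.35 for the small. The highest member was Mrpl42, at 2.02 ± 0.28 (SD, n = 18), from 1.59 to 2.46 on single arrays. Mrpl16 followed at 1.75 ± 0.30, then Mrpl3 at 1.42 ± 0.28 and Mrpl41 at 1.40 ± 0.19. The step from Mrpl3 to Mrpl41 was 0.02, far inside the spread between hearts, as were most steps in the order. At the low end, Mrps10 was at -0.78 ± 0.19, Mrpl49 at -0.71 ± 0.23, Mrps22 at -0.68 ± 0.39 and Mrpl35 at -0.49 ± 0.32. The steps between the 3 lowest were 0.03 and 0.07, and no order among them goes beyond the spread. The control arrays of 28 members were all above 0, and those of 2 members all below.

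The first comparison asked whether carbon black shifted the family over all 3 days, as the mean of the 3 day effects. Of all genes tested, 1.94% passed limma's test at an adjusted p of 0.05 (1.32% higher and 0.626% lower), and 1 of the 76 members did, or 1.32%, a share near the background. That background itself moved from 0 to 945 genes (4.77%, without control day 3 replicate 3) when each array was left out in turn. Mrpl55, an animal-specific protein of the large subunit, rose by 0.74 ± 0.20 (SE) on the log2 scale, which is 1.67-fold (limma, adjusted p = 0.0473). The median log2 fold change of the members was -0.01, against 0.00 for all genes, and 35 members lay above 0 and 41 below. At an unadjusted p under 0.05 there were 18 members, or 23.7% against 18.3% of all genes. Of these, 10 were higher (13.2% of members, 10.8% of all genes) and 8 lower (10.5% and 7.49%).

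Mrpl55 was lower and more variable in controls than in exposed hearts. At day 1 the 6 controls ran from -0.45 to 1.88 with a median of 1.25, and the 6 carbon black hearts from 0.97 to 2.26 with a median of 1.73. At day 3 the controls ran from -0.21 to 1.68 with a median of 0.95, and the exposed hearts were at 1.65, 2.07, 1.72, 1.09 and 1.80. At day 28 the controls ran from 0.34 to 2.29 with a median of 1.04, and the exposed hearts were at 1.39, 1.66, 2.28, 1.90 and 1.60. The groups overlapped at every day, with 15 of 16 exposed hearts above the mean of their own day's controls. The exposed hearts had the smaller spread, an SD of 0.37 over 16 arrays against 0.71 over the 18 controls. Mrpl55 had a single probe on the array. Without the 5 arrays of low atrial markers it was still called, together with Mrps12 and Mrpl50, among 1019 genes called in all.

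**Figure D1:**
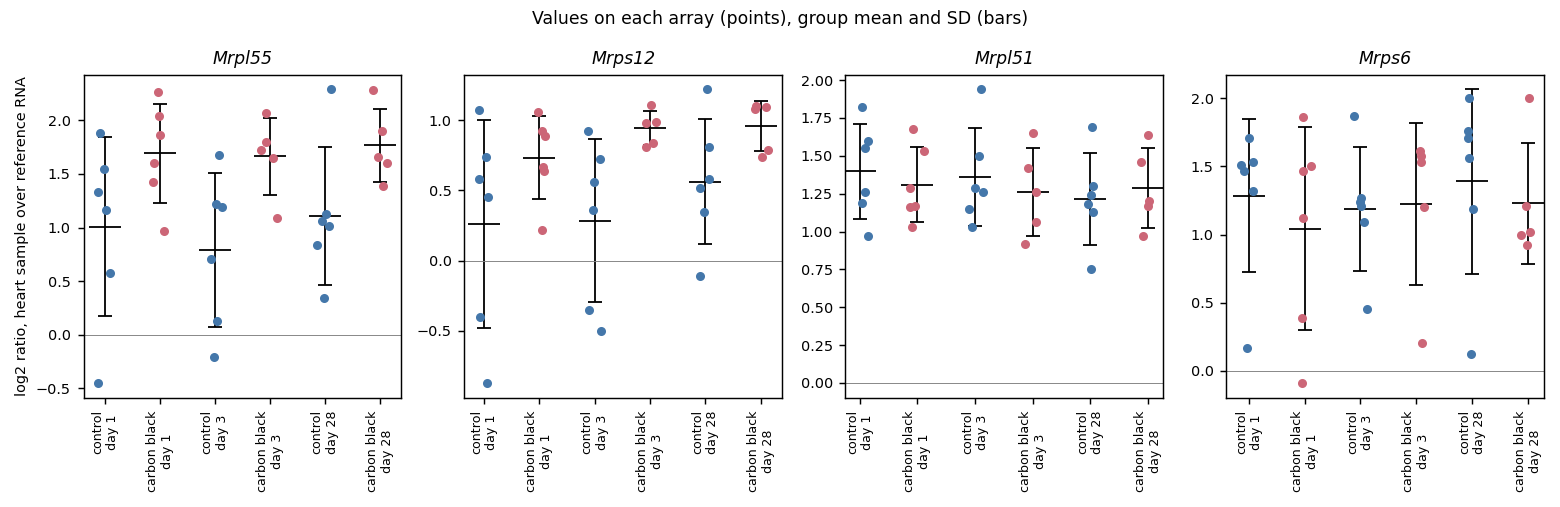
Log2 ratio of heart over reference RNA (vertical axis) on each array (points, blue control, red carbon black), with group mean and SD (black bars), for Mrpl55, Mrps12, Mrpl51 and Mrps6. For Mrpl55 and Mrps12 the lowest points belong to controls, with minima of -0.45 and -0.87, whereas the lowest Mrpl51 value is 0.75 in controls and 0.92 in carbon black hearts, and the lowest Mrps6 value 0.12 and -0.09.

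The call of Mrpl55 depended on single arrays. When each array was left out in turn it held in 10 of 34 fits, with adjusted p from 0.0235 to 0.0832 and a log2 fold change from 0.64 to 0.82. Control and exposed arrays lay at different places on the slides. All 10 arrays at the fourth position were carbon black, and 12 of the 18 controls were at the first. At the first position the 12 controls were at 0.82 ± 0.74 (SD) and the 2 exposed arrays at 1.41 ± 0.63. At the second the 3 controls were at 0.92 ± 0.27 and the 2 exposed arrays at 1.93 ± 0.19. At the third the 3 controls were at 1.62 ± 0.64 and the 2 exposed arrays at 1.63 ± 0.04. At the fourth the 10 exposed arrays were at 1.73 ± 0.39. With position as a block no member was called, and 0% of all genes were. Mrpl55 then had a log2 fold change of 0.53 (limma, adjusted p = 0.697) and Mrps12 one of 0.19 (adjusted p = 0.868), and on positions 1 to 3 alone they had 0.69 and 0.41. The part of position in this result cannot be told apart from that of carbon black at the fourth position. Ventricular markers stood at -0.31 ± 0.44 (SD) in the 18 controls and 0.09 ± 0.36 in the 16 exposed hearts, relative to the median array. Within groups Mrpl55 ran with them across arrays (r = 0.60 over 34 arrays, 0.70 over 29). It ran against the white adipocyte markers (-0.59 and -0.43) and the markers of the airway (-0.48 and -0.50). Of 5 white adipocyte markers measured, 1 was well above background on all arrays. Of 5 airway markers listed, 3 were measured and 0 were well above background on all arrays. The part of these markers in the result was not tested.

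**Figure D2:**
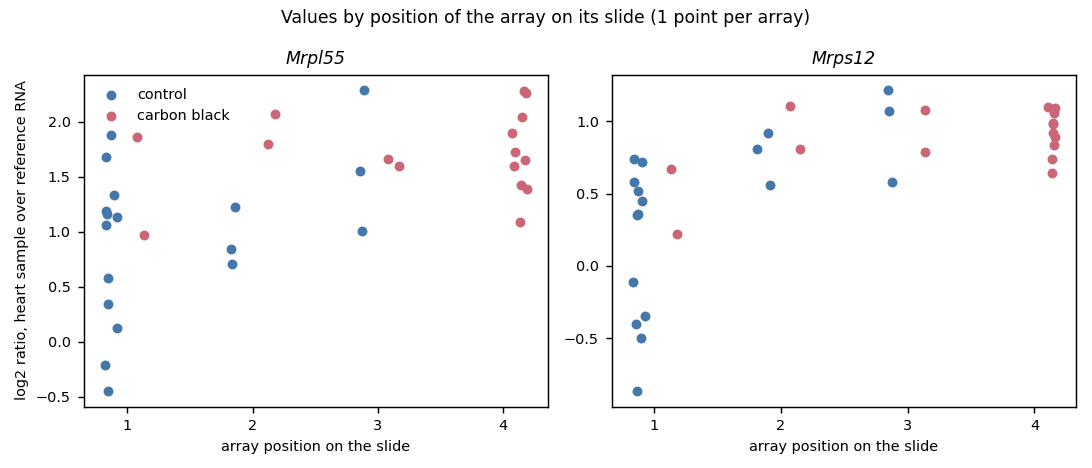
Log2 ratio over reference (vertical axis) of Mrpl55 and Mrps12 by position of the array on its slide (horizontal axis), 1 point per array, blue control and red carbon black. Low values come from the first position, where 12 of 18 controls lie, and the 10 arrays at the fourth position are all carbon black.

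Mrps12, a protein of the decoding centre of the small subunit, came next. Its log2 fold change was 0.51 ± 0.15 (limma, adjusted p = 0.0675), which did not pass. The day 1 controls ran from -0.87 to 1.07 with a median of 0.52, and the exposed hearts from 0.22 to 1.06 with a median of 0.78. At day 3 the exposed hearts were at 0.84, 0.81, 0.99, 0.98 and 1.11, while the controls ran from -0.50 to 0.92 with a median of 0.46. At day 28 the exposed hearts were at 0.74, 0.79, 1.10, 1.09 and 1.08, and the controls ran from -0.11 to 1.22 with a median of 0.55. As for Mrpl55, the lowest values were those of controls and the groups overlapped. On the 10 slides that held a control and an exposed heart of the same day, the exposed minus the control value of Mrps12 ran from 0.17 to 1.33, and that of Mrpl55 from -0.28 to 1.86. In each of these pairs the control was at position 1 and the exposed heart at position 4, so treatment and position cannot be told apart there.

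Other proteins of the large subunit with the smallest p on the higher side did not pass. Mrpl54 differed by 0.25 ± 0.08 (adjusted p = 0.0893) and Mrpl50 by 0.27 ± 0.09 (adjusted p = 0.0941, limma for both). The differences of Mrpl14, Mrpl36 and Mrpl34 were 0.36 ± 0.14, 0.31 ± 0.13 and 0.27 ± 0.13. For Mrpl36 all 16 exposed hearts lay above the mean of their day's controls, but the groups overlapped at every day. At day 1 its controls ran from -1.14 (replicate 5) to 0.73 and its exposed hearts from 0.10 to 0.60. Mrpl50 had a second probe, which gave 0.07 ± 0.11. Of the small subunit, Mrps21 differed by 0.34 ± 0.13, Mrps22 by 0.28 ± 0.12 and Mrps2 by 0.24 ± 0.10. The second probe of Mrps2 went the other way, at -0.13 ± 0.05, and had an r of -0.26 with the first. When arrays were left out in turn, the estimates of all 10 higher-side members were lowest without control day 1 replicate 5. Mrpl55 was then at 0.64, Mrps12 at 0.43 and Mrpl36 at 0.23.

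On the lower side no member passed. Mrps23 had the most negative estimate, -0.29 ± 0.11 (limma, adjusted p = 0.155), with 1.20 ± 0.34 (SD) over 18 controls and 0.93 ± 0.32 over 16 exposed hearts. A second probe of Mrps23 gave -0.01 ± 0.16. Mrpl12, a stalk protein, differed by -0.23 ± 0.10, from 0.87 ± 0.24 to 0.64 ± 0.30. Its stalk partners were at -0.01 ± 0.07 (Mrpl10) and 0.11 ± 0.06 (Mrpl11). Mrpl52 was at -0.16 ± 0.06, Mrps15 at -0.19 ± 0.08, Mrps26 at -0.19 ± 0.08, Mrps7 at -0.20 ± 0.10 and Mrpl24, which lines the exit tunnel, at -0.16 ± 0.06. Mrpl27, close to the peptidyl transferase centre, had a small estimate with a small error, -0.10 ± 0.04. Mrpl43 and Mrpl39 were at -0.16 ± 0.09 and -0.15 ± 0.09.

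**Figure D3:**
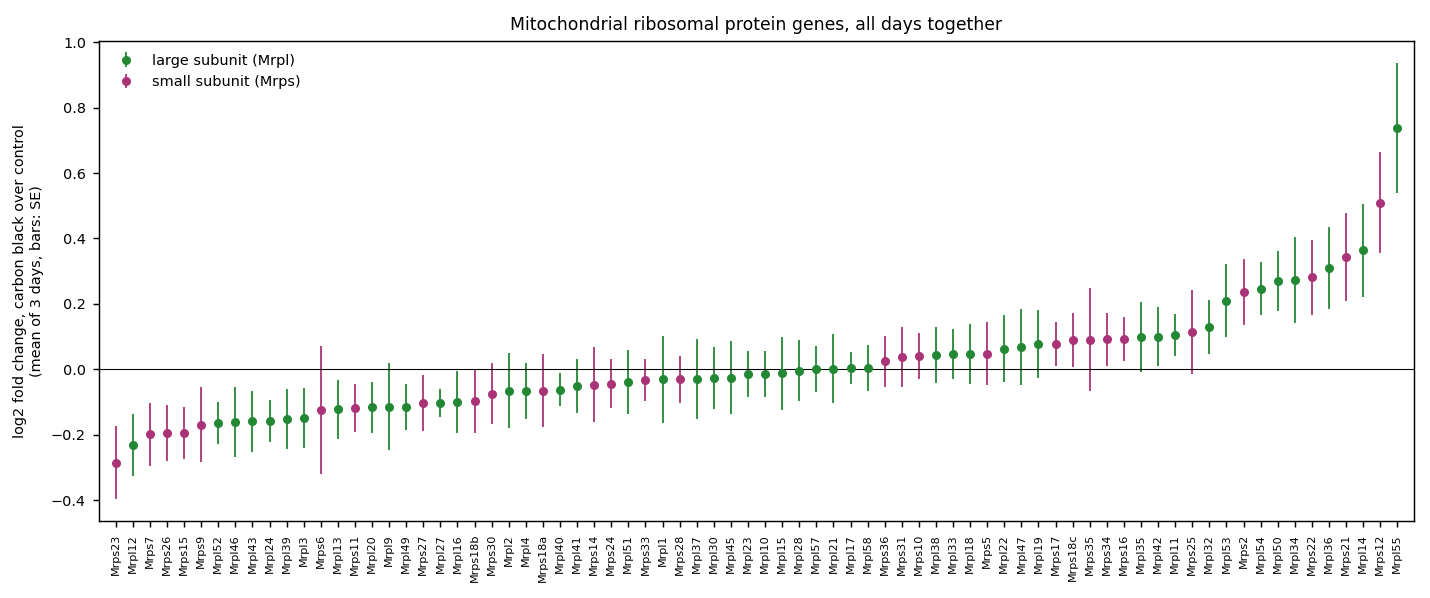
Log2 fold change of carbon black over control, mean of the 3 days, with its SE (bars), for all 76 members in order of size, green for Mrpl and purple for Mrps. Most estimates lie within about 1 or 2 SE of 0 on both sides, from -0.29 for Mrps23 to 0.51 for Mrps12, and Mrpl55 at 0.74 stands at the upper end.

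Members fixed by their roles came next, and none passed. The paralogs Mrps18a (now placed in the large subunit), Mrps18b and Mrps18c differed by -0.06 ± 0.11, -0.10 ± 0.10 and 0.09 ± 0.08. A second probe of Mrps18c, about as bright as the first, gave 0.49 ± 0.13, and the mean of its probes 0.29 (limma, adjusted p = 0.0918). Mrpl45, which anchors the ribosome to the inner membrane, was at -0.02 ± 0.11, though its second, dimmer probe gave 0.31 ± 0.13. Mrps30 and Mrpl58, a peptidyl-tRNA hydrolase built into the large subunit, were at -0.07 ± 0.09 and 0.00 ± 0.07. The cardiomyopathy gene Mrpl3 was at -0.15 ± 0.09. Members named after bacterial counterparts and members with names peculiar to mitochondria had similar values, with medians of -0.01 and -0.02 in the large subunit and 0.00 and -0.03 in the small.

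Probes of one gene did not always move together. Of 24 members with over 1 probe, 9 had all probes on one side of 0 and 15 had probes on both sides, for the most part within 1 or 2 SE. Mrpl40 had probes at -0.06 ± 0.06, -0.06 ± 0.06 and 0.20 ± 0.09. Mrpl49 had 0.35 ± 0.12 on a probe that followed its brightest probe with an r of 0.20, where the brightest gave -0.11 ± 0.07 and the third -0.16 ± 0.08. The second probes of Mrps7 and Mrps26 gave 0.15 ± 0.13 and 0.09 ± 0.11, opposite in sign to the first. These SEs come from a fit over probes. The others with probes on both sides were Mrpl1, Mrpl18, Mrpl28, Mrpl3, Mrpl38, Mrpl42, Mrps33, Mrps36 and Mrps5, besides Mrps2 and Mrpl45. Mrps36 is now known as Kgd4, a part of the oxoglutarate dehydrogenase complex.

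At single days no gene of the 19798 passed, so 0% were called (limma), and 0 members. At day 1, 4 members had an unadjusted p under 0.05, 5.26% against 7.22% of all genes. 1 of them was higher and 3 lower, where 3.33% and 3.88% of all genes were. The median of the members was -0.06, with 32.9% of members above 0 against 49% of all genes. Mrpl55 was at 0.68 ± 0.33, Mrps12 at 0.47 ± 0.26, Mrpl54 at 0.20 ± 0.14 and Mrps34 at 0.19 ± 0.13. Without control day 1 replicate 5, Mrpl55, Mrps12 and Mrpl54 were at 0.39, 0.25 and 0.11. With all arrays the lowest p was that of Mrpl27, at -0.21 ± 0.07 (adjusted p = 0.537, limma). Its 6 controls ran from 0.29 to 0.69 with a median of 0.41, and its 6 exposed hearts from 0.14 to 0.33 with a median of 0.22. These groups overlapped only between 0.29 and 0.33. Mrpl52, Mrpl24 and Mrpl39 followed at -0.27 ± 0.11, -0.23 ± 0.11 and -0.30 ± 0.15. Liver markers, relative to the median array, were at 1.49 ± 0.95 (SD) in the day 1 controls and 0.01 ± 0.78 in the exposed hearts. The ranges were -0.04 to 2.51 and -1.03 to 1.37. The part of liver markers at day 1 was not tested.

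At day 3 there were 5 members with an unadjusted p under 0.05, 6.58% against 11.1% of all genes. Of them 4 were higher and 1 lower, where 6.94% and 4.13% of all genes were. Mrpl55 was at 0.88 ± 0.35, Mrps12 at 0.66 ± 0.27, Mrps21 at 0.59 ± 0.24 and Mrpl54 at 0.29 ± 0.14. The lower side was led by small-subunit genes, Mrps26 at -0.35 ± 0.15, Mrps18b at -0.33 ± 0.17 and Mrps7 at -0.29 ± 0.17, with Mrpl24 at -0.22 ± 0.11. For Mrps21 the controls ran from -0.56 to 0.78 with a median of 0.32. Its exposed hearts were at 0.73, 1.09, 0.66, 0.59 and 0.81, so that all 5 lay above every control except the highest. Liver transcripts were high in day 3 control replicates 4, 5 and 6. Without these 3 arrays, 0 members had an unadjusted p under 0.05 at this day, against 5.39% of all genes. The estimates were then 0.77 ± 0.43 for Mrpl55, 0.56 ± 0.33 for Mrps12, 0.53 ± 0.29 for Mrps21, 0.14 ± 0.17 for Mrpl54 and -0.33 ± 0.18 for Mrps26, each with a larger SE than before. Relative to the median array, liver markers ran from -0.34 to 3.83 in the day 3 controls and from -0.19 to 2.67 in the exposed hearts, so high values were not limited to those 3. Airway markers ran from -0.18 to 3.92 in the day 3 controls and from -0.03 to 1.38 in the exposed hearts. The 3.92 was that of control replicate 1, where Mrpl55 was at -0.21. The part of airway markers was not tested.

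At day 28 no member passed. The members' median was 0.06 against 0.01 for all genes, and 55 of 76 lay above 0 (72.4% of members, 51.9% of all genes). Mrpl50 at 0.34 ± 0.16 and Mrps2 at 0.37 ± 0.18 were the 2 members with an unadjusted p under 0.05, 2.63% against 2.98% of all genes, both higher, where 1.59% of all genes were. Mrpl55 was at 0.65 ± 0.35 and Mrpl54 at 0.24 ± 0.14. On the lower side stood Mrps23 at -0.36 ± 0.20, then Mrpl52 at -0.13 ± 0.11, Mrps15 at -0.13 ± 0.14 and Mrpl12 at -0.14 ± 0.17. The Mrpl50 controls ran from 0.69 to 1.45 with a median of 0.80, and the exposed hearts were at 0.93, 1.13, 1.60, 1.26 and 1.27. The 1 control above the lowest exposed heart was replicate 2, an array of low atrial markers. Without the 5 arrays of that kind the median of the members at day 28 was 0.14, 66 of 76 lay above 0, 12 had an unadjusted p under 0.05 and 0 were called. These are 86.8% and 15.8% of members, against 50% and 6.38% of all genes in the same fit. Of the 5 arrays, control replicate 2 is the only one from day 28, so no exposed heart of that day was left out. Without that control alone the median was also 0.14, with 66 members above 0.

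Whether the effect of carbon black differed between days was tested with the interaction of treatment and day. No member was called and 0 had an unadjusted p under 0.05 (0% of all genes were called, and 1% had an unadjusted p under 0.05). The smallest unadjusted p was that of Mrpl27 (limma's moderated F, 0.126, adjusted p = 1), whose day 28 effect exceeded its day 1 effect by 0.22 ± 0.10. It was the 1 member with an unadjusted p under 0.05 in that contrast, 1.32% against 1.4% of all genes. The day 28 effect was above the day 1 effect in 67 of 76 members, or 88.2% against 52.6% of all genes, by a median of 0.10 against 0.01. Members vary together across arrays, as given below, so they do not count as 76 separate observations. At day 28, 71 of 79 nuclear genes of the respiratory chain also lay above 0 (median 0.21). Of 82 cytosolic ribosomal protein genes, 30 did (median -0.03).

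Between days within a treatment, no gene was called in any of the 6 contrasts (0% of 19798, limma). In controls from day 1 to day 3, 0 members had an unadjusted p under 0.05, against 2.04% of all genes. Mrps10 and Mrps18b had the smallest p upward, at 0.19 ± 0.12 and 0.26 ± 0.16, and Mrpl42 and Mrpl33 downward, at -0.27 ± 0.15 and -0.22 ± 0.13. From day 1 to day 28 in controls there were 0 members, against 1.18% (0.672% higher and 0.51% lower). From day 3 to day 28 in controls, 2 members were lower and 0 higher, against 3.02% and 1.43% of all genes, 4.45% in all. They were Mrpl27, with a log2 change of -0.20 ± 0.07, and Mrps11, with -0.26 ± 0.12. In exposed hearts from day 1 to day 3, 1 member was higher, Mrpl27 by 0.20 ± 0.08, against 5.42% of all genes (3.55% higher and 1.87% lower). From day 1 to day 28, Mrpl40 was the 1 member, higher by 0.19 ± 0.09, against 4.27% (2.7% higher and 1.57% lower). From day 3 to day 28 there were 0, against 1.36%. These contrasts share groups with each other and with the treatment effects.

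Across arrays most members varied together. After each gene's group means were removed, the median Pearson r between 2 members was 0.48 over 34 arrays and 0.38 over the 29 outside the low-atrial arrays. Of the 2850 pairs, 90.2% had an r above 0. All arrays share one reference and one normalisation, so these coefficients describe the arrays and carry no test. With the median of the other members, 43 members had an r over 0.7 (25 in the 29 arrays). Mrpl51 followed it most closely (r = 0.92, Spearman rho = 0.92, and r = 0.85 in the 29 arrays). Mrps34, Mrpl39 and Mrpl28 followed at 0.90, 0.88 and 0.88.

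The members' common level was high on the arrays with low atrial markers. On those 5 arrays the median of the members stood 0.20 to 0.43 above each member's own median array, against -0.32 to 0.24 on the other 29, so the ranges overlapped slightly. Mrpl51 was at 1.82 on control day 1 replicate 2, 1.94 on control day 3 replicate 4 and 1.69 on control day 28 replicate 2, the highest control of each day. Within groups the family median ran against the atrial markers (r = -0.73 over 34 arrays, -0.36 over 29), the white adipocyte markers (-0.79 and -0.58) the fibroblast markers (-0.70 and -0.44) and the macrophage markers (-0.62 and -0.55). Its r with ventricular markers was 0.17 and 0.27. The part of these markers in the members' variation was not tested.

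**Figure D4:**
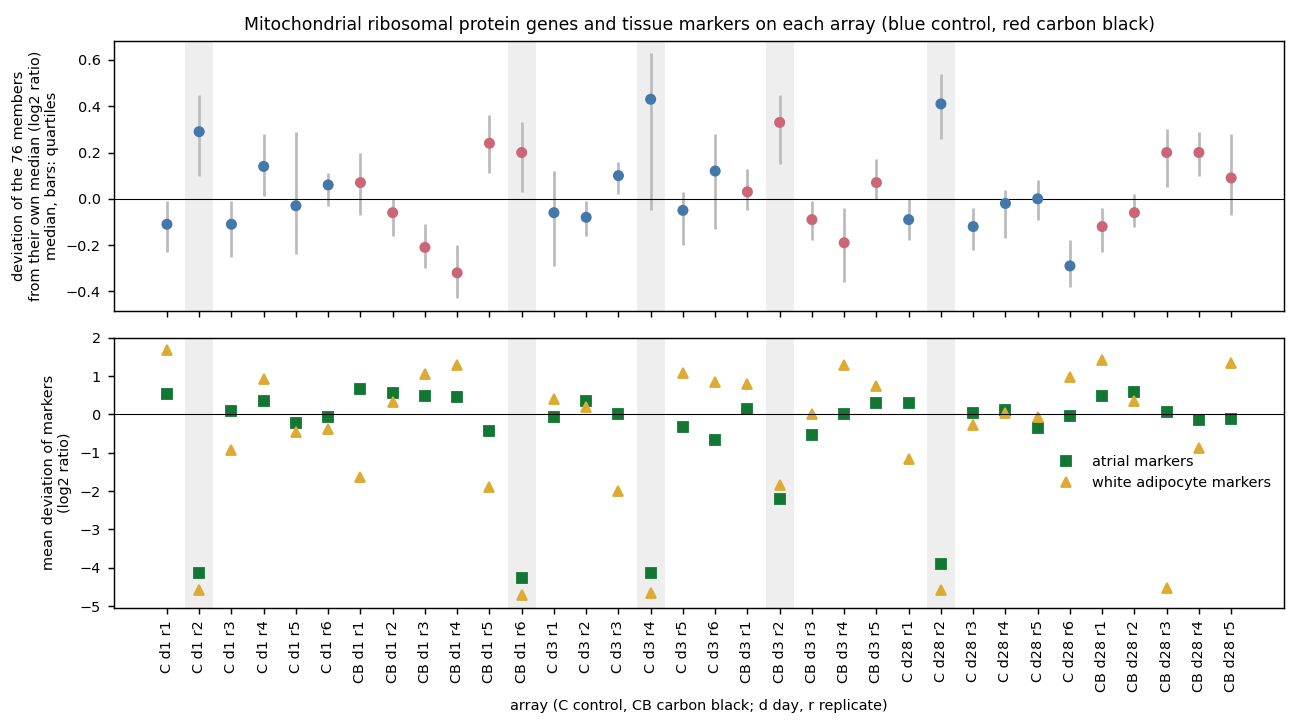
Upper panel: median and quartiles over the 76 members of the deviation of each array from the member's own median (log2 ratio), blue control and red carbon black. Lower panel: mean deviation of the atrial (squares) and white adipocyte markers (triangles) on the same arrays, with the 5 arrays of low atrial markers shaded. The shaded arrays hold medians of 0.20 to 0.43, and no treatment group lies apart from its control.

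Mrps6, whose protein sits on the small subunit, ran the opposite way. Its r with the median of the others was -0.78 (rho = -0.65), -0.71 without the 2 most extreme arrays and -0.52 in the 29. On the 5 low-atrial arrays it stood at 0.17, 0.45, 0.12, -0.09 and 0.20, in the order in which they were named, and each was the lowest of its group. Across arrays it ran with the atrial markers (r = 0.86 over 34, 0.57 over 29) and the fibroblast markers (0.84 and 0.62). Its log2 fold change was -0.12 ± 0.20. Mrpl52 (r = -0.32) and Mrpl20 (r = -0.02) also had an r below 0, and the other 73 members had one above 0.

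Mrpl55 led a second pattern. The genes most like it by Pearson r of within-group deviations over 34 arrays, among 19797, were Cox11 (r = 0.975), a copper chaperone of cytochrome oxidase, Pptc7 (0.966), a mitochondrial phosphatase, Commd1 (0.936), Dcun1d2 (0.932) and the member Mrps21 (0.931). In the 29 arrays these were 0.972, 0.957, 0.942, 0.950 and 0.932, about as high as in all 34. The 29 still hold control day 1 replicate 5, which had the smallest share of spots well above background (42.8%). On it Mrpl55 was at -0.45, Mrps21 at -0.61 and Mrps12 at -0.87, the lowest value of each. How far the pattern rests on that array was not tested. None of those 5 genes passed the all-days test, with adjusted p from 0.0508 for Pptc7 to 0.155 for Mrps21 (limma). Of the 20 most like it, 5 passed (Wbp11, Pvr, BC076637, Pdcd2l and Ldhb), where 1.94% of all genes did. These 5 are named after their values were seen. All 20 were picked for following Mrpl55 on these same arrays, so their passing is not separate support for its call. Of the other 75 members, 12 had an r over 0.7 with Mrpl55. Among the 9 others of smallest p on the higher side, 8 were of these 12, with Mrps21 at 0.93, Mrpl50 and Mrps22 at 0.87, Mrps12 at 0.86 and Mrpl36 at 0.77. Among the 10 of smallest p on the lower side none was, and Mrpl52 and Mrpl24 had an r of -0.66 and -0.48. The p and the r come from the same arrays, so this overlap is not separate support either. Within groups Mrps12 followed the bulk of the family weakly (r = 0.28).

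**Figure D5:**
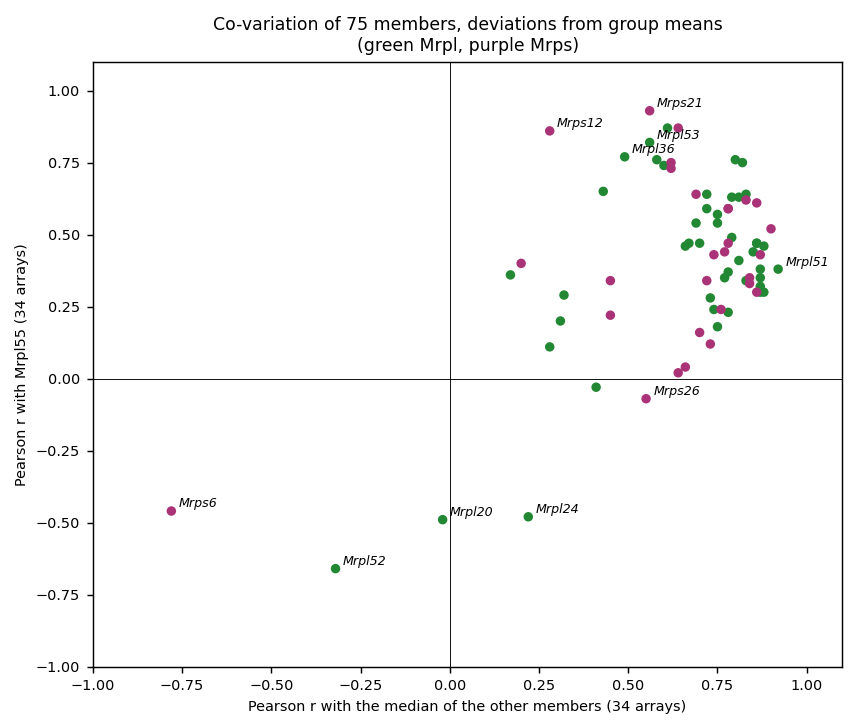
Pearson r of 75 members with the median of the other members (horizontal axis) and with Mrpl55 (vertical axis), over 34 arrays of deviations from group means, green Mrpl and purple Mrps. Most points lie at the right, Mrps6 at the far left, and Mrps21 (0.93) and Mrps12 (0.86) at the top, with Mrps12 at only 0.28 on the horizontal axis.

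The rest of the mitochondrial expression machinery was read from lists over all days. Of 5 mitoribosomal proteins with other names, 0 passed, and Dap3, Aurkaip1 and Chchd1 were at 0.18 ± 0.08, 0.04 ± 0.05 and 0.04 ± 0.09. Of 17 translation factors, 0 passed, and Gfm2, a factor that recycles ribosomes, was at 0.40 ± 0.16, with Mtfmt at -0.11 ± 0.05 and Mtif2 at 0.18 ± 0.10. Of 24 assembly factors, 0 passed, with Dhx30 at 0.38 ± 0.12, C1qbp at 0.49 ± 0.16 and Trub2 at 0.31 ± 0.11. Of 18 mitochondrial tRNA synthetases and partners, 0 passed, with Iars2 at -0.17 ± 0.08 and Fars2 at 0.29 ± 0.16. None of these lists held a called gene, against 1.94% of all genes.

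Upstream, of 9 genes of mitochondrial DNA copying and transcription 0 passed, with the polymerase Polrmt at 0.42 ± 0.13 (limma, adjusted p = 0.0746), Ssbp1 at 0.34 ± 0.11 and Tfb2m at 0.31 ± 0.12. Of 11 regulators of mitochondrial biogenesis 0 passed, with the coactivators Ppargc1a at 0.31 ± 0.14 and Ppargc1b at 0.33 ± 0.15, and Myc at 0.21 ± 0.14. Of 79 nuclear genes of the respiratory chain, 1 rose, Cox6b2 at 0.35 ± 0.09 (limma, adjusted p = 0.0450), while Cox6a2 at 0.45 ± 0.12 (0.0503) and Cox7b at 0.48 ± 0.14 (0.0614) did not pass. Their median was 0.09, with 54 of 79 above 0. Of 82 cytosolic ribosomal protein genes, 0 passed, with a median of -0.08, and the 3 of smallest p were Rps2 at -0.21 ± 0.06, Rps9 at -0.23 ± 0.08 and Rpl23a at 0.41 ± 0.14. Across arrays the median of the mitochondrial ribosomal genes ran with that of the respiratory chain (r = 0.91 over 34 arrays, 0.90 over 29) and the translation factors (0.96 and 0.91), and against that of the cytosolic ribosome (-0.57 and -0.31).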

How the data were processed

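Each of 34 two-colour arrays held the heart RNA of 1 mouse in Cy5 against a Universal Mouse Reference RNA in Cy3. The deposited scanner files give median spot and local background intensities and spot flags, made with Feature Extraction 10.1.1.1 per the file headers. The deposited value table holds the authors' log2 ratios; its further processing is not given in the sources used here. By comparison with the scanner values its columns are log2 of Cy5 over Cy3, centred near 0 (column medians -0.0554 to -0.0336), with an r of 0.996 to 0.998 to loess ratios of uncorrected medians. It was used as an alternative.

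Spot medians were background-corrected (normexp, offset 50) and loess-normalised within each array, with control spots left out and outlier flags dropped (R 4.3.3, limma 3.58.1). Of 41174 probes, 25253 were well above background on at least a share of 0.5 of the arrays of a group. The brightest probe stood for a gene, which left 19798 genes, 12348 with a symbol through RefSeq. A model with 6 groups (28 residual degrees of freedom) was fitted by lmFit and eBayes to all genes, with Benjamini-Hochberg adjustment at 0.05. The same fit was run on simulated data, in which residuals were shuffled over arrays and known shifts were added. Shuffling breaks the ties of treatment to slide, position and tissue, so that run does not address them. The number of arrays limits the precision.

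The members and lists were chosen with earlier results of these data known. Named were members past the threshold, the 10 of smallest p in each direction over all days, the 4 per single day and the 2 per contrast of days, the 4 highest and 4 lowest in controls, members fixed by role, members whose probes differ in sign, and the 5 genes of highest r with Mrpl55. Mrps6 and Mrpl51 were named after their values were seen. Of the other lists the 3 genes of smallest p were named, except 1 gene that is not reported here. Alternatives covered background, scaling, filter, probe rule, slide, scan day, position and left-out arrays. Figures used Python 3.11.15 and matplotlib 3.10.9.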

Additional observations from a re-analysis of the deposited data

Results flagged for a closer look

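Among 240 groups of 5 or 6 arrays of named members, 19 held 1 array that lay apart from the others by Dixon's criterion, where chance gives about 1 in 20 groups. Of these, 9 concerned control day 28 replicate 2 and 5 control day 3 replicate 4, both among the 5 arrays of low atrial markers. No explanation was tested.

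On control day 28 replicate 2, Mrpl50 was at 1.45 (the other controls of that day at 0.69 to 0.92), Mrps21 at 1.17 (0.36 to 0.51), Mrps22 at 0.02, Mrps2 at 0.09, Mrpl43 at 0.36, Mrps18c at 0.16, Mrpl1 at 1.34, Mrpl38 at 0.15 and Mrps5 at 0.38, each above the rest of its group. On control day 3 replicate 4, Mrpl34 was at 0.01, below the others (0.64 to 0.93), while Mrpl43 at 0.44, Mrps18a at 0.89, Mrpl40 at 0.14 and Mrpl49 at -0.15 were above them. Carbon black day 3 replicate 2, also of low atrial markers, had Mrps22 at -0.05 (others -0.51 to -0.44).

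Outside those arrays, control day 28 replicate 6 had Mrpl27 at 0.16 and Mrps36 at 0.92, both below the rest. Control day 3 replicate 3 had Mrpl52 at -0.12 and carbon black day 3 replicate 3 had Mrpl49 at -1.07, also below.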

How the results depend on the processing

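The call of Mrpl55 was not stable across settings, and the number of members called over all days, 1 in the report, moved with most of them. It was 4 (5.26% of members, 7.51% of all genes called) without background correction, 8 (10.5% and 6.78%) with median centring in place of loess, 2 (2.63% and 7.56%) in the authors' value table and 3 (3.95% and 5.15%) without the 5 arrays of low atrial markers. It was 0 without the filter on dim probes (0.46% of all genes), with the mean of the probes of a gene (0.707%) and with slide or scan day as a fixed block (0%), where the log2 fold change of Mrpl55 was 0.738, 0.738, 0.723 and 0.739. It was also 0 without the 3 day 3 controls of high liver markers (0.00505% of all genes, Mrpl55 0.702). With array position as a fixed block it was 0 (0%, Mrpl55 0.531). On positions 1 to 3 alone, an alternative chosen after seeing the data, it was 0 (0%, Mrpl55 0.69). With Agilent's processed signals it was 0 (0% of all genes), and the fold change itself was lower, 0.297 for Mrpl55 and 0.002 for Mrps12. The number stayed 1, Mrpl55, with slide as a random block (limma, adjusted p = 0.0469, 2.2% of all genes called). It did so too among probes well above background on all arrays (limma, adjusted p = 0.0415, 3.31%). Leaving out each array in turn gave 0 to 4, the highest without control day 28 replicate 2. The median over members then ran from -0.046 to 0.010 over all days, -0.101 to 0.004 at day 1, -0.106 to 0.027 at day 3 and 0.007 to 0.141 at day 28, and calls in the other contrasts were 0 to 0. No paired analysis was possible because the replicate numbers only name arrays, each from a different mouse with its own sample number. The slides do pair arrays, and the fits with slide as a fixed or a random block are those given here.

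Median centring moved all genes up by a median of 0.188 over all days, and the members to 0.359 over all days, 0.391 at day 1, 0.419 at day 3 and 0.275 at day 28. All 76 members were then above 0 over all days and at day 1, and 75 were at day 3 and at day 28. Among the named members, Mrps23, Mrps15, Mrpl12, Mrps7 and Mrps18b stayed below the median of all genes over all days. It gave Mrps23 0.039, Mrpl52 0.231, Mrps15 0.17, Mrpl24 0.206, Mrpl12 0.173, Mrpl27 0.284, Mrps26 0.189, Mrps7 0.152, Mrpl43 0.232, Mrpl39 0.207, Mrpl10 0.33, Mrps18a 0.302, Mrpl3 0.24, Mrpl45 0.352, Mrps30 0.286, Mrpl1 0.316, Mrpl28 0.426, Mrpl40 0.319, Mrpl49 0.243, Mrps33 0.386, Mrps6 0.266 and Mrpl51 0.362. At day 1 it gave Mrpl27 0.257, Mrpl52 0.227, Mrpl24 0.204 and Mrpl39 0.128, at day 3 Mrps26 0.109, Mrpl24 0.23 and Mrps7 0.166, at day 28 Mrpl52 0.104, and from day 3 to day 28 in exposed hearts Mrpl23 -0.045. The level in controls was -0.611 under it and 0.157 in the authors' value table. Agilent's processed signals gave Mrps21 -0.005 over all days and Mrps12 -0.034 at day 3. The mean of the probes gave Mrpl45 0.142, Mrpl40 0.026 and Mrpl49 0.025, since other probes of these genes differ in sign. Without the 3 liver-high controls, Mrps10 changed by -0.014 from day 1 to day 3 in controls. For the other settings the cause was not tested. A change of sign was counted where a value exceeded 1 SE, and 54 of 1246 values crossed 0 within it.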
